A study of Bos taurus with 8 samples.

Results

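The genes described are 57 of the 18871 genes listed for 8 bovine preadipocyte clones. They were picked by a rule on gene symbols, which was set with earlier results of these data known. The rule takes matrix metalloproteinases (MMP), their tissue inhibitors (TIMP) and *RECK*, and the ADAM, ADAMTS and ADAMTS-like (ADAMTSL) families. Lysyl oxidases (*LOX* and LOXL) and lysyl hydroxylases (PLOD) complete it. The measured set has 14 MMP, 10 ADAM, 16 ADAMTS, 4 ADAMTSL, 5 inhibitor, 5 lysyl oxidase and 3 lysyl hydroxylase genes. *TGM2*, *MMP1*, *MMP3* and *MMP13* were not analysed here. Preadipocytes are the committed precursors of fat cells. Each clone was grown from 1 cell of the stromal vascular fraction (SVF), the non-adipocyte cells released when fat is digested. Tissue came from adult Angus-cross steers, and 4 clones derived from intramuscular fat (IMF) and 4 from subcutaneous fat (SF). Each clone of a group came from its own SVF sample according to the paper. The labels count 5 steers and the methods text 6, and neither says which IMF and SF clones share an animal. Neither group received a treatment according to the methods text, which has RNA taken from growing cultures before they were confluent, whereas the design text deposited with the data places adipogenic induction before sequencing. How well a clone grew and filled with lipid, and how it looked, entered into the choice, so the 8 clones stand for selected cells and not for the whole SVF.

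Metalloproteinases cut the proteins of the extracellular matrix. MMPs are zinc enzymes made as inactive precursors, some secreted and some tethered to the membrane, and TIMPs block their active site. ADAM proteins mainly release the outer parts of membrane proteins, ADAMTS enzymes trim procollagen and cleave large proteoglycans, and ADAMTS-like proteins have lost the protease domain. Lysyl hydroxylases and lysyl oxidases act on collagen lysines in turn, inside and outside the cell, to make the crosslinks that stiffen the fibre. In fat, collagen turnover of this kind accompanies the enlargement of adipocytes.

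The gene counts of a clone summed to between 19654917 and 29308882, and from 17616 to 18178 genes had at least 1 count. All 8 stromal progenitor markers of a fixed list were present in all 8 clones, with 24240 to 25410 CPM summed in the IMF clones and 48290 to 54940 CPM in the SF clones. Most of each sum came from the collagen I genes *COL1A1* (mean 12370 CPM for IMF, 30090 for SF) and *COL1A2* (10430 and 18170). The gap between these sums therefore says little about the other markers. *COL1A1* and *THY1* were lower in IMF past both thresholds, *COL1A2* and *ITGB1* lower and *PDGFRA* higher by less than the fold threshold, and the other 3 did not pass. CPM is the count of a gene over the library size in units of 1e+06 reads, after scaling by edgeR's TMM factors. The IMF clones also carried markers of other cells. All 6 skeletal myoblast genes and 11 of 12 endothelial genes were higher in IMF. The summed endothelial level was 361 to 408 CPM in the IMF clones and 24.7 to 36.3 CPM in the SF clones, where 8 of the 12 genes had 3 counts or fewer in every clone and *CLDN5* held most of the sum. The summed myoblast level was 573 to 642 CPM in IMF against 0.551 to 31.0 CPM in SF. Of 5 smooth muscle and pericyte genes, 4 were lower and *MYH11* higher in IMF (2177 to 2446 CPM summed in IMF and 3240 to 11030 CPM in SF). Of 5 leukocyte genes 1 was lower in IMF, with a sum of 19.2 to 38.9 CPM in IMF against 50.6 to 90.1 CPM in SF. For adipocytes, *PLIN1* did not pass and *FABP4* was higher in IMF, with 10.9 to 14.2 CPM summed in IMF and 3.50 to 3.98 CPM in SF. The part of these markers in the differences below was not tested. Bulk RNA cannot tell a change in all cells of a clone from a change in some of them.

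Of 13 inhibitors and collagen crosslinking enzymes, 0 were higher and 4 lower in IMF past both thresholds. Of 40 MMP, ADAM and ADAMTS genes, 7 were higher and 7 lower. Few of all genes tested were called higher (4.78%), so 0 of 13 says little, and these gene groups were not tested against each other. Of the 57 genes, 7 were higher and 14 lower in IMF with an adjusted p under 0.05 and a log2 fold change of at least 1 either way (21 genes, 36.8%). Over all 18339 genes tested the same thresholds called 8.82%, with 4.78% higher and 4.04% lower in IMF. Among genes with a mean of at least 1 CPM they called 9.74%, against 21 of 54 (38.9%) of the members at that level. All 57 members passed the minimum of 20 counts in total. The 7 higher genes were *MMP9*, *ADAM8*, *ADAMTS1*, *ADAMTS12*, *ADAMTS15*, *ADAMTS16* and *ADAMTS17*. All are of the MMP, ADAM and ADAMTS families, which hold 40 of the 57 members. The 14 lower genes were *MMP11*, *MMP23*, *MMP25*, *ADAM15*, *ADAM33*, *ADAMTS7*, *ADAMTS20*, *ADAMTSL3*, *ADAMTSL4*, *ADAMTSL5*, *TIMP3*, *RECK*, *LOXL2* and *LOXL4*. Another 6 genes had an adjusted p under 0.05 with a smaller fold change (16.9% of all genes tested did so). The median log2 fold change was -0.32 over the members and -0.03 over all genes tested. In 28 members the 4 clones of one group all lay above the 4 of the other (32.1% of all genes tested did so), 9 with IMF above SF (18.0% of all genes) and 19 with SF above IMF (14.1%). SF1 often stood apart from the other SF clones, and without it 9 members were higher and 11 lower in IMF.

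**Figure D1:**
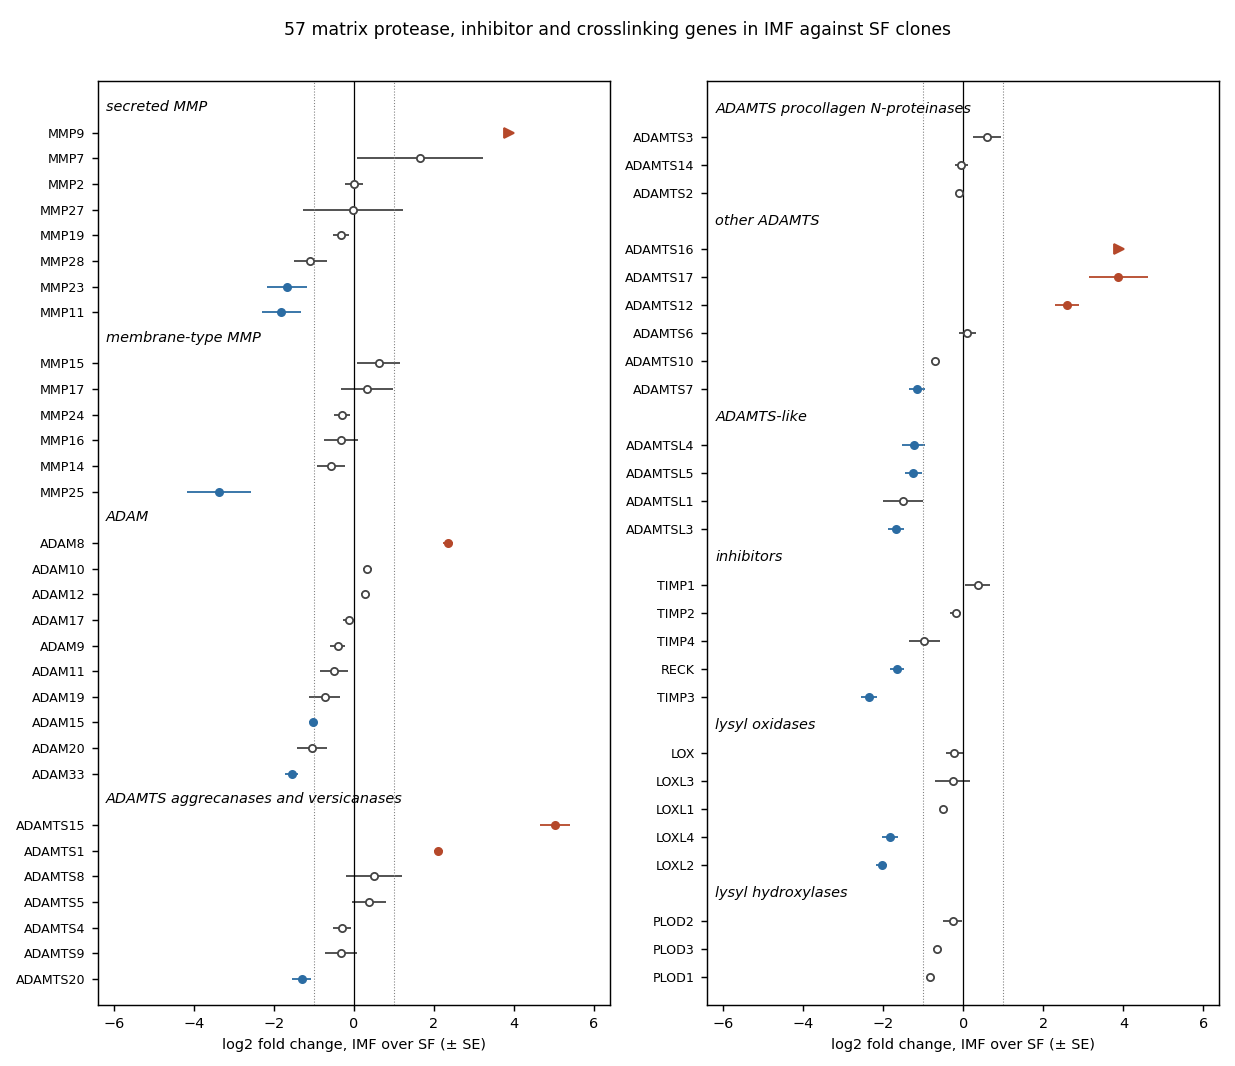
Log2 fold change of each of the 57 genes in IMF against SF clones (4 clones each), grouped by role, with 1 standard error from edgeR's fit as bars. Filled points passed both thresholds (red higher and blue lower in IMF), open points did not, dotted lines mark a log2 fold change of 1 either way, and the triangles for *MMP9* and *ADAMTS16* are lower bounds, since all 4 SF clones had 0 counts. No inhibitor, lysyl oxidase, lysyl hydroxylase or ADAMTS-like gene is red, where 4.78% of all genes tested were higher past both thresholds.

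*MMP2*, the secreted gelatinase A that cuts denatured collagen and basement membrane collagen, made up most of the MMP transcripts. Per length, as TPM (counts over gene length, scaled to the same total in every clone), it held 87.8% to 88.8% of the summed MMP level in the IMF clones and 77.2% to 85.6% in the SF clones. It stood at 2872, 2682, 2699 and 2691 CPM in IMF1 to IMF4 and at 1604, 3485, 3006 and 2810 CPM in SF1 to SF4. SF1 was below every other clone, SF4 lay among the IMF clones, and SF2 and SF3 were above them. No difference passed the test (log2 fold change 0.01, SE 0.22, adjusted p = 0.989, edgeR's quasi-likelihood test). *MMP14*, the membrane protease that activates pro-*MMP2* on the cell surface, was second by TPM. It had 213 to 222 CPM in the IMF clones and 150, 586, 288 and 261 CPM in SF1 to SF4 (log2 fold change -0.56, SE 0.35, adjusted p = 0.282). SF2 was well above and SF1 below the IMF clones, and *MMP14* shares bases with the counted gene *RBM23*.

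*MMP9*, gelatinase B, typical of leukocytes and invading cells, was found in IMF clones alone. It had 51, 70, 43 and 44 counts in IMF1 to IMF4 and 0 in all 4 SF clones. Against a floor of 3 counts in each SF clone, it was at least 14.8-fold higher in IMF (2.19 ± 0.218 CPM, adjusted p = 0.000413). Floors of this kind cover counting error only and amounted to 0.0981 to 0.165 CPM. Its level was low, at percentile 27.2 of the genes tested in IMF.

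The 3 MMP genes past the thresholds in the other direction were uneven between SF clones. *MMP25*, a membrane-type MMP held by a lipid anchor and known from neutrophils, had 0.624, 0.523, 0.861 and 0.286 CPM in IMF1 to IMF4 and 16.6, 1.75, 2.96 and 2.76 CPM in SF1 to SF4. Every SF clone was above every IMF clone, SF1 by far the most (log2 fold change -3.38, SE 0.80, adjusted p = 0.0158). Without SF1 the log2 fold change was -2.11 (adjusted p = 0.00755), and with limma-voom the adjusted p was 0.112. *MMP11*, or stromelysin 3, which is activated by furin before it leaves the cell, had 5.71 to 6.89 CPM in IMF against 19.4, 9.16, 47.5 and 11.7 CPM in SF1 to SF4. SF3 was the highest and all SF clones lay above the IMF clones (log2 fold change -1.81, SE 0.49, adjusted p = 0.0264). Without SF3 the log2 fold change was -1.13 (adjusted p = 0.0167). The call was lost with limma-voom (0.0828) and whenever 1 IMF clone was left out (0.0613 to 0.0648). *MMP23* had 14.1 to 15.9 CPM in IMF against 109, 18.8, 32.5 and 30.6 CPM in SF1 to SF4, again with SF1 the highest (log2 fold change -1.66, SE 0.50, adjusted p = 0.0409). Without SF1 its log2 fold change was -0.86, under the threshold, and with any 1 IMF clone left out its adjusted p was 0.0868 to 0.0947. It was 0.0854 with limma-voom and 0.0872 with the clone number as a block. The files list a separate *MMP23B* gene, although RefSeq gives that name as a synonym of *MMP23*. *MMP23B* had 160 to 549 counts in the IMF clones and 151 to 262 in the SF clones (log2 fold change 0.55, adjusted p = 0.435), so the level of *MMP23* is uncertain.

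The other 8 MMP genes did not pass both thresholds. *MMP19* had 29.3 ± 2.18 CPM in IMF against 36.5 ± 11.3 CPM in SF (adjusted p = 0.313, and 0.0249 without SF3). *MMP28*, or epilysin, had 5.95 to 7.07 CPM in IMF against 27.5, 6.06, 9.21 and 12.6 CPM in SF1 to SF4 (log2 fold change -1.09, SE 0.42, adjusted p = 0.0907, and 0.0304 without SF2). The membrane-type genes *MMP15* and *MMP17* were highest of all clones in SF1, at 3.901 and 3.85 CPM, while the other SF clones had at most 1.06 and 1.14 CPM, below every IMF clone (at least 1.95 and 1.43 CPM). Pooled, they had adjusted p-values of 0.443 and 0.748, and without SF1 both were higher in IMF, with log2 fold changes of 1.51 (adjusted p = 0.00568) and 1.39 (adjusted p = 0.0445). *MMP16* had adjusted p = 0.626 (0.044 without SF1) and *MMP24* 0.304. *MMP24* shares bases with the counted gene *MMP24OS*. *MMP7* (0 to 38 counts) and *MMP27* (0 to 22 counts) were near the limit of detection, and the counts of these 2 genes were even numbers in all 8 clones.

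Among inhibitors, *TIMP3* differed the most. It is the TIMP that stays bound to the matrix, and it also blocks *ADAM17* and several ADAMTS enzymes. The gene lies at chr5:71402333-71459972 (ARS-UCD2.0). It had 144, 154, 143 and 143 CPM in IMF1 to IMF4 and 992, 519, 650 and 827 CPM in SF1 to SF4. Every SF clone held more than 3 times the level of any IMF clone (mean 5.12-fold higher in SF, log2 fold change -2.36, SE 0.20, adjusted p = 9.91e-05). *RECK*, a membrane-anchored inhibitor of *MMP2*, *MMP9* and *MMP14*, was lower too. Its levels were 9.02, 9.75, 10.8 and 10.3 CPM in IMF1 to IMF4 and 32.8, 42.1, 29.4 and 21.9 CPM in SF1 to SF4, without overlap (log2 fold change -1.66, SE 0.19, adjusted p = 0.000448).

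The other 3 TIMP genes did not pass. *TIMP1* had 591 to 665 CPM in IMF against 878, 290, 374 and 428 CPM in SF1 to SF4, so that SF1 was above and the other SF clones below all IMF clones (log2 fold change 0.36, SE 0.31, adjusted p = 0.442). Without SF1 the log2 fold change was 0.80 (adjusted p = 0.00466). *TIMP2*, which also takes part in the activation of *MMP2*, had 292 ± 9.29 CPM in IMF against 335 ± 64.5 CPM in SF (log2 fold change -0.20, SE 0.13, adjusted p = 0.326). *TIMP4* was low, with 0.949 ± 0.236 CPM in IMF against 1.87 ± 0.781 CPM in SF (log2 fold change -0.98, adjusted p = 0.0982, and 0.0326 without SF4). *TIMP1*, *TIMP2* and *TIMP4* each share bases with another counted gene in RefSeq.

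The make-up of the TIMP family therefore differed between the groups, while its sum overlapped. *TIMP3* was 6.54% to 7.08% of summed TIMP TPM in the IMF clones and 25.9% to 33.5% in the SF clones. *TIMP1* was 65.3% to 67.0% in IMF and 32.4% to 55.9% in SF. Summed TIMP was 1545 to 1810 TPM in IMF and 1670 to 2661 TPM in SF, the highest being SF1. The ratio of summed TIMP to summed MMP was 0.746, 0.797, 0.725 and 0.756 in IMF1 to IMF4 and 1.85, 0.505, 0.640 and 0.824 in SF1 to SF4. On this scale SF1 and SF4 lay above all IMF clones and SF2 and SF3 below them. With CPM in place of TPM the IMF clones had 0.340 to 0.372 and SF3, at 0.383, changed to the upper side. These shares and ratios are descriptions without a test.

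Of 5 lysyl oxidases, 2 were lower in IMF and 0 higher, beside 4.04% and 4.78% of all genes tested. All 5 log2 fold changes were negative, although that of *LOXL3* turned to 0.41 without SF1, 0.027 with limma-voom and 0.007 with the clone number as a block. *LOXL2* (chr8:70414275-70527420), which crosslinks collagen IV and fibrillar collagen, had 268, 275, 255 and 261 CPM in IMF1 to IMF4 and 1307, 960, 1188 and 921 CPM in SF1 to SF4. The lowest SF clone was well above the highest IMF clone (4.13-fold higher in SF, log2 fold change -2.05, SE 0.13, adjusted p = 2.87e-05). *LOXL4* had 148, 151, 153 and 144 CPM in IMF1 to IMF4 and 444, 430, 793 and 463 CPM in SF1 to SF4, with SF3 the highest (log2 fold change -1.84, SE 0.20, adjusted p = 0.000428). *LOX*, the founding member, had 732 to 777 CPM in IMF against 614, 986, 1260 and 706 CPM in SF1 to SF4, and its groups overlapped (log2 fold change -0.23, SE 0.21, adjusted p = 0.488). *LOXL1*, needed for elastic fibres, was lower in IMF by less than the fold threshold (99.4 ± 4.96 and 141 ± 11.5 CPM, log2 fold change -0.50, adjusted p = 0.00283). *LOXL3* was uneven, with 17.9 to 19.8 CPM in IMF against 48.5, 9.06, 15.1 and 18.5 CPM in SF1 to SF4 (adjusted p = 0.702), and it shares bases with *HTRA2*.

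By TPM, *LOX* was the leading lysyl oxidase in every IMF clone and *LOXL2* in every SF clone. *LOX* held 46.1% to 47.3% of the family in IMF and 17.1% to 29.8% in SF, and *LOXL2* 22.6% to 24.1% and 39.7% to 53.3%. The ratio of *LOXL2* to *LOX* was 0.507 ± 0.0163 in IMF and 1.96 ± 0.808 in SF (SD, n = 4 each). The summed family was 478 to 565 TPM in IMF and 845 to 1449 TPM in SF. *COL1A1*, the chain of collagen I that these enzymes act on, was itself lower in IMF (log2 fold change -1.28, SE 0.13, adjusted p = 0.000308). Relative to *COL1A1*, *LOXL2* TPM was still lower in every IMF clone (0.0333 to 0.0388) than in every SF clone (0.0542 to 0.0712), whereas *LOX* TPM was higher in every IMF clone (0.0687 to 0.0751) than in any SF clone (0.0229 to 0.0473).

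**Figure D2:**
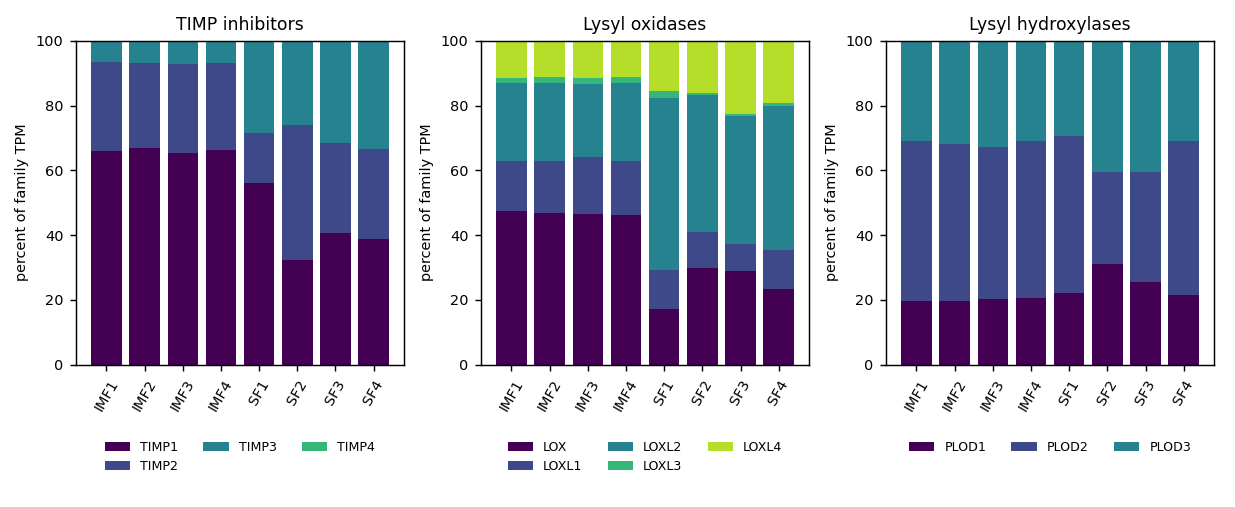
Share of each gene in the summed TPM of its family, in percent, for the 4 IMF and the 4 SF clones, with 1 stacked bar for each clone. In the IMF clones *TIMP3* takes 6.54% to 7.08% of the TIMP bar and *LOXL2* 22.6% to 24.1% of the lysyl oxidase bar, against 25.9% to 33.5% and 39.7% to 53.3% in the SF clones, and the lysyl hydroxylase shares overlap for *PLOD2* and *PLOD3*.

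Among lysyl hydroxylases, 2 were lower in IMF with a fold change under the threshold and *PLOD2* did not pass. *PLOD1*, which modifies lysines in the collagen helix, had 78.9 to 83.8 CPM in IMF against 130 to 164 CPM in SF (log2 fold change -0.83, SE 0.08, adjusted p = 0.000271). *PLOD3*, which also attaches sugars to collagen, had 112 to 127 CPM in IMF against 175 to 213 CPM in SF (log2 fold change -0.67, SE 0.09, adjusted p = 0.000944). *PLOD2*, the enzyme of the collagen ends, had 237 to 268 CPM in IMF against 421, 190, 243 and 360 CPM in SF1 to SF4. Its SF clones lay on both sides of the IMF clones (log2 fold change -0.27, SE 0.23, adjusted p = 0.439).

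The ADAMTS family, with 16 of the 57 members, gave 5 of the 7 genes higher in IMF. Any relation of these levels to the endothelial and myoblast markers of the IMF clones was not tested. *ADAMTS1*, which cleaves aggrecan and versican, was the most abundant of the 5. It had 58.6, 57.03, 61.7 and 52.5 CPM in IMF1 to IMF4 and 16.5, 12.8, 11.4 and 12.2 CPM in SF1 to SF4 (4.34-fold higher, log2 fold change 2.12, SE 0.12, adjusted p = 1.43e-05). *ADAMTS5*, its neighbour 92411 bases away on chromosome 1 and an aggrecanase as well, had 28.2 to 32.9 CPM in IMF against 6.16, 30.9, 19.5 and 36.0 CPM in SF1 to SF4. Only SF1 and SF3 were below the IMF clones, and *ADAMTS5* did not pass (log2 fold change 0.38, SE 0.43, adjusted p = 0.573). *ADAMTS1* lies at chr1:9583735-9592432 and *ADAMTS5* at chr1:9441018-9491324 in ARS-UCD2.0.

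Another pair of neighbours lies 26230 bases apart on chromosome 29. *ADAMTS15*, a versican-cleaving enzyme described in myoblast fusion, had 108, 132, 114 and 112 counts in IMF1 to IMF4 and 5, 1, 3 and 3 in SF1 to SF4. The difference was 33.7-fold in mean CPM (log2 fold change 5.04, SE 0.37, adjusted p = 4.99e-05). With 3 of the 4 SF clones at or under the floor of 3 counts, the size is uncertain, and a prior count of 2 gave a log2 fold change of 4.42. *ADAMTS8* had 15, 18, 24 and 78 counts in IMF1 to IMF4, against 22, 6, 29 and 30 in the SF clones, which overlapped (log2 fold change 0.51, SE 0.70, adjusted p = 0.641). Whether the 2 genes of either pair differ from each other in response was not tested.

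The other 3 ADAMTS genes higher in IMF were expressed at low levels. *ADAMTS12*, which degrades the cartilage protein COMP, had 8.01 to 8.63 CPM in IMF against 0.690 to 1.95 CPM in SF (6.00-fold, log2 fold change 2.59, SE 0.29, adjusted p = 0.000468). *ADAMTS16* had 44, 50, 59 and 48 counts in IMF1 to IMF4 and none in the SF clones, which made it at least 14.7-fold higher against the floor of 3 counts in each SF clone (adjusted p = 0.000577). *ADAMTS17*, linked to short stature and lens dislocation when mutated, had 118, 157, 90 and 107 counts in IMF1 to IMF4 and 20, 4, 2 and 1 in SF1 to SF4. The groups were separate, and SF1 held most of the SF counts (log2 fold change 3.87, SE 0.74, adjusted p = 0.00582). Without SF1 the log2 fold change was 5.41 (adjusted p = 9.3e-05).

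In the same family, *ADAMTS7* and *ADAMTS20* were lower in IMF. *ADAMTS7*, a close relative of *ADAMTS12* that also degrades COMP, had 13.8 to 17.1 CPM in IMF against 47.3, 37.5, 25.6 and 25.3 CPM in SF1 to SF4 (log2 fold change -1.16, SE 0.21, adjusted p = 0.0043). Without SF1 its log2 fold change was -0.96, under the threshold, with an adjusted p of 0.00363. *ADAMTS20*, a versican-cleaving enzyme of pigment cell development, had 16.1 to 18.5 CPM in IMF against 27.97, 57.7, 30.7 and 51.9 CPM in SF1 to SF4 (log2 fold change -1.30, SE 0.24, adjusted p = 0.00474). *ADAMTS10*, a binder of fibrillin microfibrils, was lower in IMF by less than the fold threshold (log2 fold change -0.72, SE 0.10, adjusted p = 0.00138).

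The 3 procollagen N-proteinases, which remove the amino-terminal extension of fibrillar procollagens, did not pass. *ADAMTS2*, the most abundant ADAMTS gene by TPM, had 269 to 275 CPM in IMF against 268 to 322 CPM in SF (log2 fold change -0.10, SE 0.08, adjusted p = 0.385). *ADAMTS14* (5.68 ± 0.801 and 5.88 ± 0.930 CPM) and *ADAMTS3* (3.78 ± 0.367 and 2.50 ± 1.32 CPM) were low in both groups. *ADAMTS4*, *ADAMTS6* and *ADAMTS9* had adjusted p-values of 0.368, 0.784 and 0.619. *ADAMTS9* ranged from 3.49 CPM in SF3 to 17.9 CPM in SF4, and *ADAMTS6*, with an adjusted p of 0.0368 without SF1, shares bases with *CWC27*.

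Of 4 ADAMTS-like genes, 3 were lower in IMF and 0 were higher, beside 4.04% and 4.78% of all genes tested. All 4 log2 fold changes were negative with edgeR, DESeq2 and limma-voom, so none could be higher at any p. *ADAMTSL3* had 5.76 to 7.30 CPM in IMF against 14.6, 27.5, 23.2 and 18.1 CPM in SF1 to SF4 (log2 fold change -1.69, SE 0.20, adjusted p = 0.000576), and it shares bases with *SH3GL3*. *ADAMTSL4*, a microfibril protein of the lens and eye, had 19.1 to 21.1 CPM in IMF against 81.5, 37.1, 37.3 and 32.6 CPM in SF1 to SF4. SF1 was far above the others (log2 fold change -1.25, SE 0.28, adjusted p = 0.013), and without it the log2 fold change was -0.85, under the threshold, with an adjusted p of 0.000262. *ADAMTSL5*, which binds fibrillin, had 23.9 to 30.5 CPM in IMF against 79.3, 69.9, 80.6 and 40.3 CPM in SF1 to SF4 (log2 fold change -1.26, SE 0.21, adjusted p = 0.00326). *ADAMTSL1*, or punctin, had 22.3 to 25.3 CPM in IMF against 12.4, 96.6, 70.04 and 85.3 CPM in SF1 to SF4. SF1 was below the IMF clones and the other SF clones well above them, so that the pooled test did not pass (log2 fold change -1.51, SE 0.50, adjusted p = 0.0597). Without SF1 it did (log2 fold change -1.85, adjusted p = 4.66e-05).

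Among ADAM genes, *ADAM8* was higher and *ADAM33* and *ADAM15* were lower in IMF. *ADAM8* (chr26:25732361-25745425), a sheddase known from leukocytes, had 26.6, 30.1, 28.6 and 26.2 CPM in IMF1 to IMF4 and 4.62, 6.51, 4.95 and 5.79 CPM in SF1 to SF4. Every IMF clone held over 4 times the level of any SF clone (5.10-fold in the means, log2 fold change 2.35, SE 0.12, adjusted p = 9.19e-06). *ADAM33*, a mesenchymal ADAM studied in asthma, had 54.4 to 60.7 CPM in IMF against 227, 149, 134 and 166 CPM in SF1 to SF4 (log2 fold change -1.55, SE 0.16, adjusted p = 0.000288). *ADAM15*, whose disintegrin domain binds integrins, had 20.5 to 22.5 CPM in IMF against 39.2 to 51.1 CPM in SF. Its log2 fold change of -1.03 (SE 0.09, adjusted p = 0.000157) was close to the threshold, and it became -0.94 without SF1 and -0.89 with total counts alone as the scale.

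Of the other 7 ADAM genes, 2 were higher in IMF by less than the fold threshold and 5 did not pass. *ADAM10*, which cuts Notch, was one of them (102 ± 2.69 and 80.6 ± 10.8 CPM, log2 fold change 0.34, SE 0.10, adjusted p = 0.0401). *ADAM12*, a gene of mesenchymal progenitors, was the other and close to the significance limit (119 ± 5.46 and 98.4 ± 9.40 CPM, log2 fold change 0.27, SE 0.09, adjusted p = 0.04999). Both lost significance when any 1 IMF clone was left out (adjusted p of 0.0781 to 0.106 for *ADAM10* and 0.0761 to 0.174 for *ADAM12*) or SF4 (0.0772 and 0.0829), and *ADAM12* also without SF1 (0.0753) or SF2 (0.0949). With the clone number as a block their adjusted p-values were 0.0604 and 0.0633, and *ADAM12* had 0.0501 with RLE factors, 0.0737 with no filter and 0.0604 with at least 10 counts in 4 clones. *ADAM17*, which releases TNF, had 54.9 ± 2.21 CPM in IMF against 59.6 ± 13.9 CPM in SF (log2 fold change -0.12, SE 0.16, adjusted p = 0.627). *ADAM9* led the family by TPM averaged over all 8 clones, although *ADAM12* was above it in every IMF clone (25.3% to 27.5% of summed ADAM TPM against 21.6% to 23.3%) and *ADAM33*, *ADAM12* and *ADAM19* were above it in SF1. It did not pass (log2 fold change -0.40, adjusted p = 0.166), but had -0.57 with an adjusted p of 0.0066 without SF1. *ADAM19*, or meltrin beta, had 63.2 to 64.7 CPM in the IMF clones and 178, 52.1, 52.4 and 142 CPM in SF1 to SF4, falling on both sides of IMF (log2 fold change -0.73, SE 0.39, adjusted p = 0.216). *ADAM11* and *ADAM20* were under 4 CPM in every clone and did not pass (adjusted p = 0.358 and 0.0771).

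**Figure D3:**
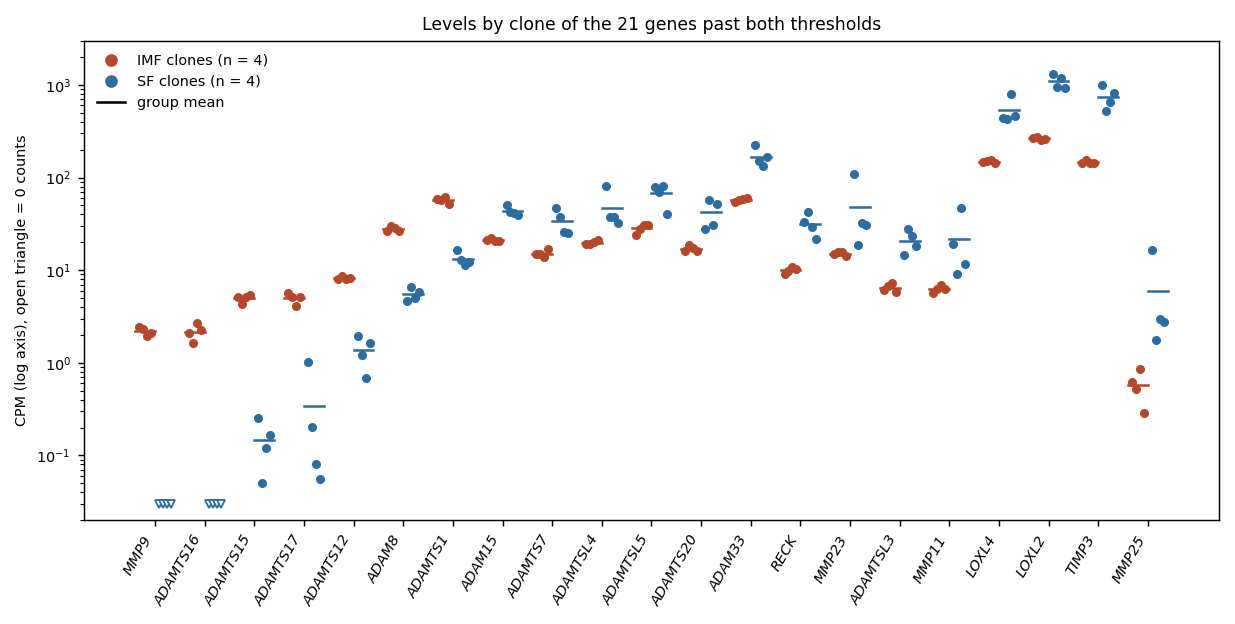
CPM on a log axis in each of the 4 IMF (red) and 4 SF (blue) clones, with the group mean as a line, for the 21 genes past both thresholds, ordered by log2 fold change from the highest in IMF to the lowest. Open triangles at the bottom stand for 0 counts, and the SF clones of *MMP25*, *MMP23* and *MMP11* are spread over a far wider range than the IMF clones, for *MMP25* from 1.75 to 16.6 CPM against 0.286 to 0.861 CPM.

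The SF clones differed from each other more than the IMF clones did in these genes. Among the 32 members with a mean of at least 10 CPM in both groups, the median coefficient of variation (CV) was 4.66% between IMF clones and 28.6% between SF clones. For all 8642 genes at that level it was 6.00% and 12.4%. The CV was larger in SF for all 32 members, and for 76.7% of all genes at that level. Counting error alone would give the 32 members a median CV of 2.45% in IMF. *ADAMTS2* had the lowest CV in both groups, 0.948% in IMF and 7.61% in SF. *MMP23* had the highest in SF, 86.6%, and *ADAMTSL5* the highest in IMF, 11.03%. SF1 was the highest or lowest SF clone in 24 of the 32 members (75.0%), against 65.0% of all genes at that level. It was highest in 13, among them *TIMP1*, *TIMP3*, *ADAM19*, *LOXL3* and *ADAMTSL4*, and lowest in 11, among them *MMP2*, *MMP14*, *ADAMTS5* and *ADAMTSL1*.

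**Figure D4:**
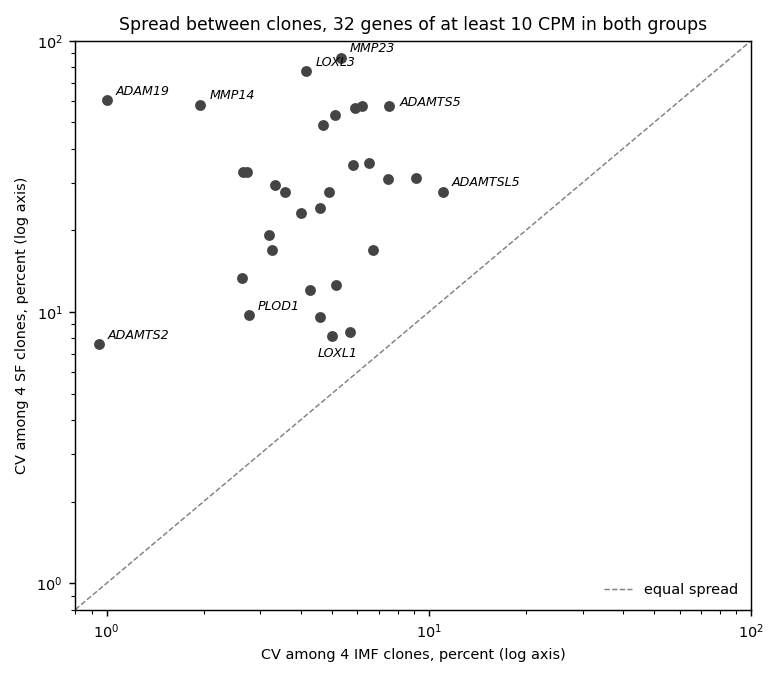
CV between the 4 SF clones against CV between the 4 IMF clones, in percent on log axes, for the 32 genes of at least 10 CPM in both groups, with the dashed line at equal spread. All 32 points lie above the line, from *ADAMTS2* (0.948% in IMF and 7.61% in SF) to *MMP23* (5.33% and 86.6%).

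Other genes of matrix proteolysis and collagen modification were taken from a fixed list of 48, of which 44 were measured. Of these, 4 were higher and 4 lower in IMF (18.2%, beside 8.82% of all genes tested), and 6 had an adjusted p under 0.05 with a smaller fold change. *PLAU*, the urokinase that turns plasminogen into plasmin, had 82.4 ± 1.52 CPM in IMF against 6.00 to 19.9 CPM in SF (log2 fold change 2.69, SE 0.32, adjusted p = 0.000611). *P4HA3*, a prolyl hydroxylase subunit, was 16.8-fold higher in IMF (31.8 ± 2.32 and 1.89 ± 0.659 CPM, log2 fold change 4.06, SE 0.22, adjusted p = 9.65e-06), while its relatives *P4HA1* and *P4HA2* had log2 fold changes of 0.37 and 0.09 (adjusted p = 0.102 and 0.376). *TGM3*, a transglutaminase of skin and hair, had 133 to 298 counts in the IMF clones and 0, 3, 1 and 0 in the SF clones, at least 57.2-fold higher against the floor of 3 counts in each SF clone. *CTSL*, a cysteine protease of the lysosome, was 5.49-fold higher at a low level (3.61 ± 0.874 and 0.658 ± 0.345 CPM).

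The 4 lower genes of that list had means of 53.1 to 714 CPM in SF. *HTRA3* and *HTRA1*, secreted serine proteases, had log2 fold changes of -1.86 (196 ± 9.95 and 714 ± 202 CPM) and -1.21 (281 ± 15.96 and 651 ± 127 CPM). *PCOLCE*, which speeds the removal of the carboxy-terminal procollagen extension, had 138 ± 5.93 and 313 ± 62.2 CPM (log2 fold change -1.19, SE 0.14, adjusted p = 0.000561). *P3H2*, a prolyl 3-hydroxylase, had 13.6 ± 0.652 and 53.1 ± 29.3 CPM (log2 fold change -1.97, SE 0.38, adjusted p = 0.0062). The median log2 fold change of the 44 genes was -0.19.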

How the data were processed

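The RNA-seq libraries of 8 clones were analysed. Per the methods text, Trimmomatic 0.39 was used for trimming, HISAT2 for alignment (STAR 2.7.11a in the submitters' processing notes) against the ARS-UCD2.0 assembly, and featureCounts 2.0.2 for gene counts. The authors deposited raw counts, together with group means and a differential expression result that were not used. The kit is described as non-stranded in one source and stranded in the other, so 9 members that share bases with another counted gene may share reads. The gene length was used as deposited.

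The row without a gene name was left out (1 row, at most 0.0209% of a clone's counts). Genes whose counts over all clones reached 20 were kept (18339) and compared by the quasi-likelihood test of edgeR 4.0.16 (R 4.3.3) with TMM factors. P-values were two-sided and adjusted over all genes kept by the method of Benjamini and Hochberg, with thresholds of 0.05 and a log2 fold change of 1. SE is the unshrunk coefficient over the root of F. The scripts were tested on simulated data. TPM used the deposited length. All 57 symbols were found in RefSeq's ARS-UCD2.0 list. Tables and figures were made with Python 3.11.15. The paper describes each clone of a group as grown from its own SVF sample. P-values rest on a dispersion that both groups share for each gene, so they do not measure the spread of either group alone. That spread differed, with a median CV of 4.66% between IMF clones and 28.6% between SF clones over 32 members. Whether the small spread of the IMF clones is that of independent clones was not tested. The detection floor was 3 counts per clone, 0.0981 to 0.165 CPM.

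Members, lists and the rule for named genes were chosen with earlier results of these data known. Named were all members past the thresholds, all inhibitors, lysyl oxidases and lysyl hydroxylases, the 2 most abundant of each other family, the members with a small but significant change, and the listed other genes past the thresholds. The remaining members and *MMP23B* were named after their values were seen, to account for each one. Alternatives were DESeq2 1.42.0, limma-voom (limma 3.58.1), RLE, upper quartile and total-count scaling, no filter or at least 10 counts in 4 clones, a prior count of 2, the clone number as a block, and each clone left out.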

Additional observations from a re-analysis of the deposited data

Results flagged for a closer look

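Each group of 4 clones was screened for a clone whose gap to its nearest neighbour took a larger part of the group's range in CPM than Dixon's limit at 95% allows. Of 112 groups of member values, 13 had such a clone (11.6%), where about 5.6 would come up by chance at 1 in 20. Over all genes tested 7.30% of groups had one. The outlying clone was SF1 in 7 of the 13, and in 24.2% of such groups over all genes. Members measured in the same clone are not independent, and no test was made of these shares.

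SF1 was high in *MMP25* (16.6 CPM, the others 1.75 to 2.96), *MMP15* (3.901, the others 0.771 to 1.06), *ADAMTSL4* (81.5, the others 32.6 to 37.3), *LOXL1* (158, the others 134 to 137), *ADAMTS6* (10.3, the others 5.35 to 6.01), *ADAMTS17* (1.03, or 20 counts, the others 0.0551 to 0.200) and *MMP23* (109, the others 18.8 to 32.5). SF3 was high in *LOXL4* (793 CPM, the other SF clones 430 to 463).

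Among IMF clones, IMF1 was high in *MMP2* (2872 CPM, the others 2682 to 2699), IMF2 in *TIMP3* (154, the others 143 to 144) and in *MMP7* (1.24, or 38 counts, the others at most 0.0960), IMF4 in *ADAMTS8* (3.71, the others 0.589 to 1.09), and IMF2 was low in *ADAMTS15* (4.32, the others 5.17 to 5.33). The highest IMF clone exceeded the IMF mean by little in *MMP2* (mean 2736 CPM) and *TIMP3* (mean 146 CPM).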

How the results depend on the processing

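Of the 21 genes past both thresholds, 15 kept their call in all 17 alternatives and none of the 21 changed direction in any. The number past the thresholds was 18 with limma-voom, 24 with DESeq2 and 19 to 22 with 1 clone left out (7 to 9 higher, 11 to 15 lower). The share of all genes called was not counted for the alternatives, so a shift in the calls of all genes cannot be told apart. Calls were gained by *ADAM20* (DESeq2, at least 10 counts in 4 clones), *ADAMTSL1* (DESeq2, without SF1), *MMP28* (DESeq2, without SF2), *TIMP4* (without SF4), *MMP15* and *MMP17* (without SF1). *ADAM10* and *ADAM12*, with a smaller fold change, lost significance without any 1 IMF clone or when blocked by clone number (replicate block), *ADAM12* also with RLE factors and both other filters. The other matrix genes past the thresholds numbered 8 to 10. On CPM in place of TPM the mean ratio of summed TIMP to summed MMP was 0.353 in IMF and 0.566 in SF, and SF3 moved from below to above the IMF clones. Nothing says that clones with the same number share an animal. Their deviations from the group means had correlations of -0.00933 to 0.139 over 4 pairs, and 2 of 4 IMF clones were closest to their own number. These values cannot show whether animals were shared. With the clone number as a replicate block, 20 members passed (7 higher, 13 lower), and *LOXL3* turned to 0.007. The log2 fold changes that turned sign were small in size or of low genes, none past the thresholds, and the cause was not tested. With total counts alone, which moved the median of all genes from -0.03 to 0.12, they were *ADAM17* (0.018), *ADAMTS14* (0.103), *ADAMTS2* (0.038) and *MMP27* (0.109). With limma-voom they were *ADAMTS9* (0.008) and *LOXL3* (0.027), and *MMP2* was -0.024 without a filter and -0.021 with at least 10 counts in 4 clones. With 1 clone left out, those that turned spanned these ranges over the 8 fits: *ADAMTS14* (-0.131 to 0.043), *ADAMTS6* (-0.005 to 0.358), *ADAMTS8* (-0.415 to 0.801), *ADAMTS9* (-0.631 to 0.15), *LOXL3* (-0.535 to 0.408), *MMP16* (-0.638 to 0.014), *MMP2* (-0.181 to 0.145) and *MMP27* (-0.979 to 0.392). Depth limits *MMP7*, *MMP27*, *MMP9*, *ADAMTS16*, *ADAM11*, *ADAM20* and *TIMP4*, the members with at most 70 counts in every clone.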
